A study of Homo sapiens with 6 samples.

Results

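The transcripts described here come from 10 genes of the S100 calcium-binding protein family, S100A2, S100A4, S100A6, S100A8, S100A9, S100A10, S100A11, S100A14, S100A16 and S100P. They were taken by symbol from the count table, and are 10 of its 60649 gene rows. Of these, 9 passed the filter on low counts, as did 22038 genes in all. S100A8 did not pass.

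RNA-sequencing was performed on OVCAR5, an established human ovarian cancer line of epithelial origin. Stable lines were made by lentiviral transduction with a METTL3 expression construct in the pCDH vector, or with the empty vector as control, and all were selected with puromycin. METTL3 is the catalytic subunit of the nuclear complex that writes N6-methyladenosine (m6A) into mRNA. Each group had 3 libraries of poly(A) RNA from cells grown in standard medium. The series text also calls the controls parental, while the protocol describes empty-vector lines; they are called vector here. The sources do not say whether replicates were separate transductions or separate dishes, so p-values measure the spread between these libraries only. Reads of the METTL3 transgene and of the cells' own METTL3 cannot be told apart in gene counts. No promoter of the construct and no clonal selection is named.

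S100 proteins are small, acidic, mostly dimeric proteins with a pair of EF-hand calcium-binding loops. Calcium opens a surface through which they bind partners such as annexins and myosin, and several are also secreted and act on the receptors RAGE (AGER) and TLR4. Most of the family lies in the epidermal differentiation region of chromosome 1. Many members are abundant in epithelia and carcinomas, whereas S100A8 and S100A9 are best known as calprotectin, the pair that myeloid cells store in large amounts.

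The plan of the libraries bears on every value below. Total counts ranged from 96633925 to 125463386, and METTL3 mRNA was higher in all 3 METTL3 libraries, at 164 ± 11.5 CPM (counts as a rate of the TMM-scaled library total; SD, n = 3) against 73.6 ± 6.25 CPM in the vector libraries (log2 fold change 1.16, edgeR adjusted p = 0.072; 1.28 without the replicates numbered 1, adjusted p = 1.59e-08). The library numbered 1 stood apart in both groups. The chi-square per degree of freedom between replicates was 12.6 and 13.1 for number 2 against number 3, and 112 to 250 for number 1 against either. Each comparison is therefore given on all 6 libraries and on the 4 libraries numbered 2 and 3, a choice made with that knowledge. The sources name no batch for the libraries numbered 1.

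On genome build hg38, 9 of the 10 genes lie on chromosome 1 over 1634.1 kb. In map order these are S100A10, S100A11, S100A9, S100A8, S100A6, S100A4, S100A2, S100A16 and S100A14. The last 7 sit within 259.1 kb, and 1309.9 kb separate S100A11 from S100A9. S100A9 is read from the plus strand and the other 8 from the minus strand. S100A16 (chr1:153606886-153613145) and S100A14 (chr1:153614255-153616986) are 1.1 kb apart. S100P lies alone on chromosome 4 (chr4:6693878-6697170, plus strand).

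The promoters shown are those of the 4 genes called higher with METTL3 in replicates 2 and 3 (adjusted p under 0.05), and of the 1 called lower. The motif marked in them was looked at, with others, after these calls were known. S100A6, which was not called, also holds that motif. S100A16 has another window (chr1:153609306-153609605), which is not shown and does not hold the motif. Each line is a RefSeq window (GRCh38.p14) on the gene's own strand, from 250 bases before the transcription start to 50 after it, with TATAA, the core of the TATA box, in capitals.
S100A9 (chr1:153357604-153357903, plus strand): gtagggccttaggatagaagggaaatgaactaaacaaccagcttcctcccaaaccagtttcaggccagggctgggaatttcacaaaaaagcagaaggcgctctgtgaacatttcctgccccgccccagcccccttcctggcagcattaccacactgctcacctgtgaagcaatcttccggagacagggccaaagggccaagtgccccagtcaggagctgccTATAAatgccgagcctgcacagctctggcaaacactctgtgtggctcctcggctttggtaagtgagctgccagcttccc
S100A4 (chr1:153545757-153546056, minus strand): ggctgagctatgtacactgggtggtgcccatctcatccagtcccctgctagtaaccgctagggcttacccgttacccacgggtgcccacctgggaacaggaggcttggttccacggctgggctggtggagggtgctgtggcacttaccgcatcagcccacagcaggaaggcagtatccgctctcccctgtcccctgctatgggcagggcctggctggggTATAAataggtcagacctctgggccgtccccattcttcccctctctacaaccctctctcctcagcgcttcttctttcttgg
S100A14 (chr1:153616276-153616575, minus strand): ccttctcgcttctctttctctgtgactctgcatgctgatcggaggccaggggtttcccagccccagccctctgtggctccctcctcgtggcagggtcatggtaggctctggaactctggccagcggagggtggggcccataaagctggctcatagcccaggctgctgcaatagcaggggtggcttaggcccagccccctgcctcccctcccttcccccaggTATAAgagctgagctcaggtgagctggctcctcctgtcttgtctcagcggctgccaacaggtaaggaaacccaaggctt
S100P (chr4:6693628-6693927, plus strand): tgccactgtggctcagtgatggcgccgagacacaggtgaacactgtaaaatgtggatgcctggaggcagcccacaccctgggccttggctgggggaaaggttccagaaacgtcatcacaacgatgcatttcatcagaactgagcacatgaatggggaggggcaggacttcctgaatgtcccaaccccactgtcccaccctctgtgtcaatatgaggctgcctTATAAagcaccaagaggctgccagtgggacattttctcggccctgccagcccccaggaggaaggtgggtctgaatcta
S100A16 (chr1:153613088-153613387, minus strand): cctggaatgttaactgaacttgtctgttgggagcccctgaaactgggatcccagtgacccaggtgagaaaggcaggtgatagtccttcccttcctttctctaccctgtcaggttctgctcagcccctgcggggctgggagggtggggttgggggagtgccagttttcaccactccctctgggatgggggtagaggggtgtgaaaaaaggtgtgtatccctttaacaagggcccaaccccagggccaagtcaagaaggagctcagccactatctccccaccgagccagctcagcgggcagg

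All 10 genes matched the RefSeq table, with 14 windows in all. TATAA on the gene's strand was found in windows of 6 of the 10 genes (7 of the 14 windows). Its first base lay 31 bases before the start in S100A4, 30 in S100A6, 29 in S100A9 and S100A14, 28 in S100P and 29 in 1 of the windows of S100A8 (126 in another of them). No window of S100A2, S100A10, S100A11 or S100A16 held it on that strand. Of all 27305 genes with a window, 17.8% had a window with TATAA on the gene's strand, and of all 35116 windows of this length 14.8% held it there (20.4% on either strand). A run of GGGCGG, the core of the GC box bound by SP1, was present on either strand in 5 of the 10 genes against 48.3% of all genes, and in 5 of the 14 windows against 45.0% of all windows. TGANTCA, the AP-1 site, was found in 1 of the 10 genes, S100A2, against 9.37% of all genes (1 of 14 windows against 7.71%). TATAA does not overlap either of the other motifs in its letters. The motif was looked at after results were known, so these are descriptions of the letters in the windows only.

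The transcripts were also short. Length, GC content and GGAC were taken from the longest annotated transcript of each gene. That transcript was shorter than 1500 bases for 9 of the 9 tested members and for 24.2% of all tested genes, with a median of 673 against 2887 bases. The median GC content was 53.8% in the members against 48.3%. GGAC, the most frequent core of the METTL3 recognition sequence, occurred at a median of 5.75 per kb against 3.52 per kb and was present in every member, as in 96.8% of all tested genes.

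Most of these genes were among the more abundant mRNAs of OVCAR5. On the length-scaled level (TPM) S100A6, a growth-associated member also called calcyclin, was highest, with a mean of 1742 over the 6 libraries and a range of 1376 to 2200, which ranked 36 among the tested genes. S100A10, the annexin A2 partner that is locked in an active form without calcium, had a mean of 1179 TPM (1063 to 1304), and S100A11, which binds annexin A1, a mean of 1096 TPM (987 to 1295). The ranges of S100A10 and S100A11 overlapped over the libraries, yet S100A6 was above S100A10, and S100A10 above S100A11, within each of the 6 libraries.

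S100P, first found in placenta, came next with a mean of 598 TPM and a range of 381 to 1031. S100A16 had a mean of 384 TPM (280 to 457), S100A9 of 321 TPM (172 to 585), S100A4 of 286 TPM (179 to 535) and S100A14 of 211 TPM (152 to 307). The range of each of these 5 overlapped that of the gene before it in this order. Within libraries, S100A11 was above S100P and S100A4 above S100A14 in 6 of 6, S100A9 above S100A4 in 5, and S100P above S100A16 and S100A16 above S100A9 in 4. S100A2, a member known from basal epithelium, was far lower at 26.8 TPM (21.9 to 38.5), outside the range of every other member.

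**Figure D1:**
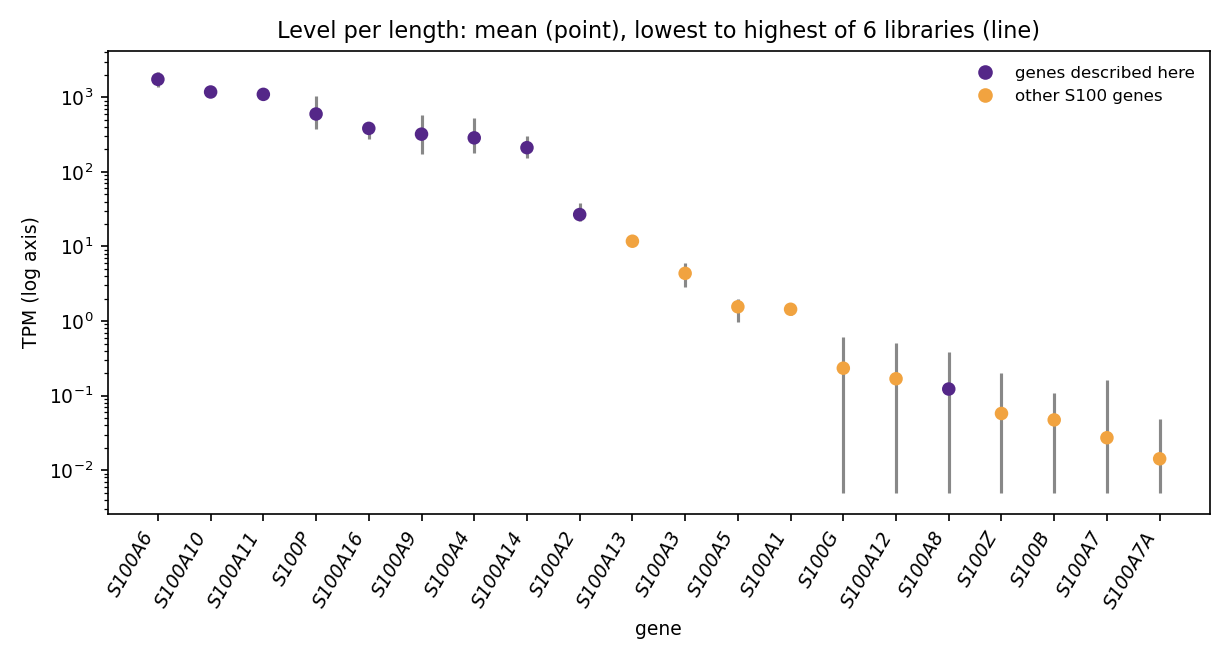
Level of each S100 gene in TPM on a log axis, with the mean of the 6 libraries as a point and the lowest to the highest library as a line (lines that reach a library at 0 are drawn down to the lower edge). Of the genes described here 9 lie above every other S100 gene, and S100A8 lies among those near 0.

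S100A8 was all but missing while S100A9 was plentiful. S100A8 had 4, 2 and 0 counts in METTL3 replicates 1, 2 and 3 and 8, 2 and 0 counts in vector replicates 1, 2 and 3, against 6288 S100A9 counts in vector replicate 1 and 8167 in METTL3 replicate 1. The limit that a count of 0 allows is 3 counts, or 0.0239 to 0.031 CPM across the libraries, and covers counting error only. It takes each count as a separate fragment. Low counts were mostly even, as when both mates of a pair are counted, and the limit would then be higher. Of the 8 myeloid markers, some were at or near 0 and others were expressed. PTPRC, MPO and FCGR3B, markers of white blood cells, of myeloid granules and of neutrophils, lay between 0 and 0.0708 CPM in every library. ITGAM lay between 0.733 and 1.48 CPM, CSF1R between 0.154 and 0.443 CPM and CSF3R between 0.0198 and 0.231 CPM, while LYZ was at 28.1 to 57.0 CPM and CD14 at 7.02 to 11.4 CPM. The 8 myeloid markers summed to 36.9 to 49.96 CPM in METTL3 libraries and 45.9 to 65.3 CPM in vector libraries.

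The largest differences among the libraries followed the replicate number. S100A9 measured 72.4, 33.4 and 32.1 CPM in METTL3 replicates 1, 2 and 3 and 66.3, 22.0 and 25.2 CPM in the vector replicates. Both libraries numbered 1 were above the other 4. S100A4, the metastasis-associated member also called FSP1, had a like pattern, with 109.4, 50.6 and 52.1 CPM in METTL3 replicates 1, 2 and 3 and 77.5, 37.7 and 41.1 CPM in the vector replicates. In both genes METTL3 replicate 1 was the highest library and vector replicate 2 the lowest.

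S100P reached 91.6, 47.3 and 47.4 CPM in METTL3 replicates 1, 2 and 3 and 120.4, 40.0 and 41.1 CPM in the vector replicates. S100A14, a membrane-associated epithelial member, had 77.4, 53.4 and 54.5 CPM in the METTL3 replicates and 97.3, 43.2 and 44.8 CPM in the vector replicates. In these 2 genes the vector library numbered 1, not the METTL3 one, was the highest. Within each group replicates 2 and 3 lay close together, and in all 4 genes both METTL3 libraries of those numbers were above both vector libraries. These 4 are the genes called higher with METTL3 in those same libraries, so this order is no separate result. The share of all tested genes with such an order was not counted.

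S100A6 had 435.4, 354.5 and 359.1 CPM in METTL3 replicates 1, 2 and 3 and 529.6, 297.6 and 340.1 CPM in the vector replicates. S100A10 had 245.3, 272.9 and 280.1 CPM in the METTL3 replicates and 327.3, 239.7 and 266.2 CPM in the vector replicates. S100A11 had 148.7, 157.3 and 163.5 CPM in the METTL3 replicates and 208.5, 142.6 and 153.4 CPM in the vector replicates. In S100A10 and S100A11 vector replicate 1 was the highest library, while METTL3 replicate 1 lay within the range of the 4 libraries numbered 2 and 3.

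S100A16, a broadly expressed member, was the exception in direction. It had 102.9, 141.1 and 154.6 CPM in METTL3 replicates 1, 2 and 3 and 154.9, 161.8 and 176.0 CPM in the vector replicates. It was the 1 member whose groups did not overlap, with every METTL3 library below every vector library, as 17.4% of all tested genes did not overlap in either direction. S100A2 had 7.31, 8.49 and 9.48 CPM in the METTL3 replicates and 14.8, 7.94 and 9.05 CPM in the vector replicates, so that vector replicate 1 stood above the other 5.

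**Figure D2:**
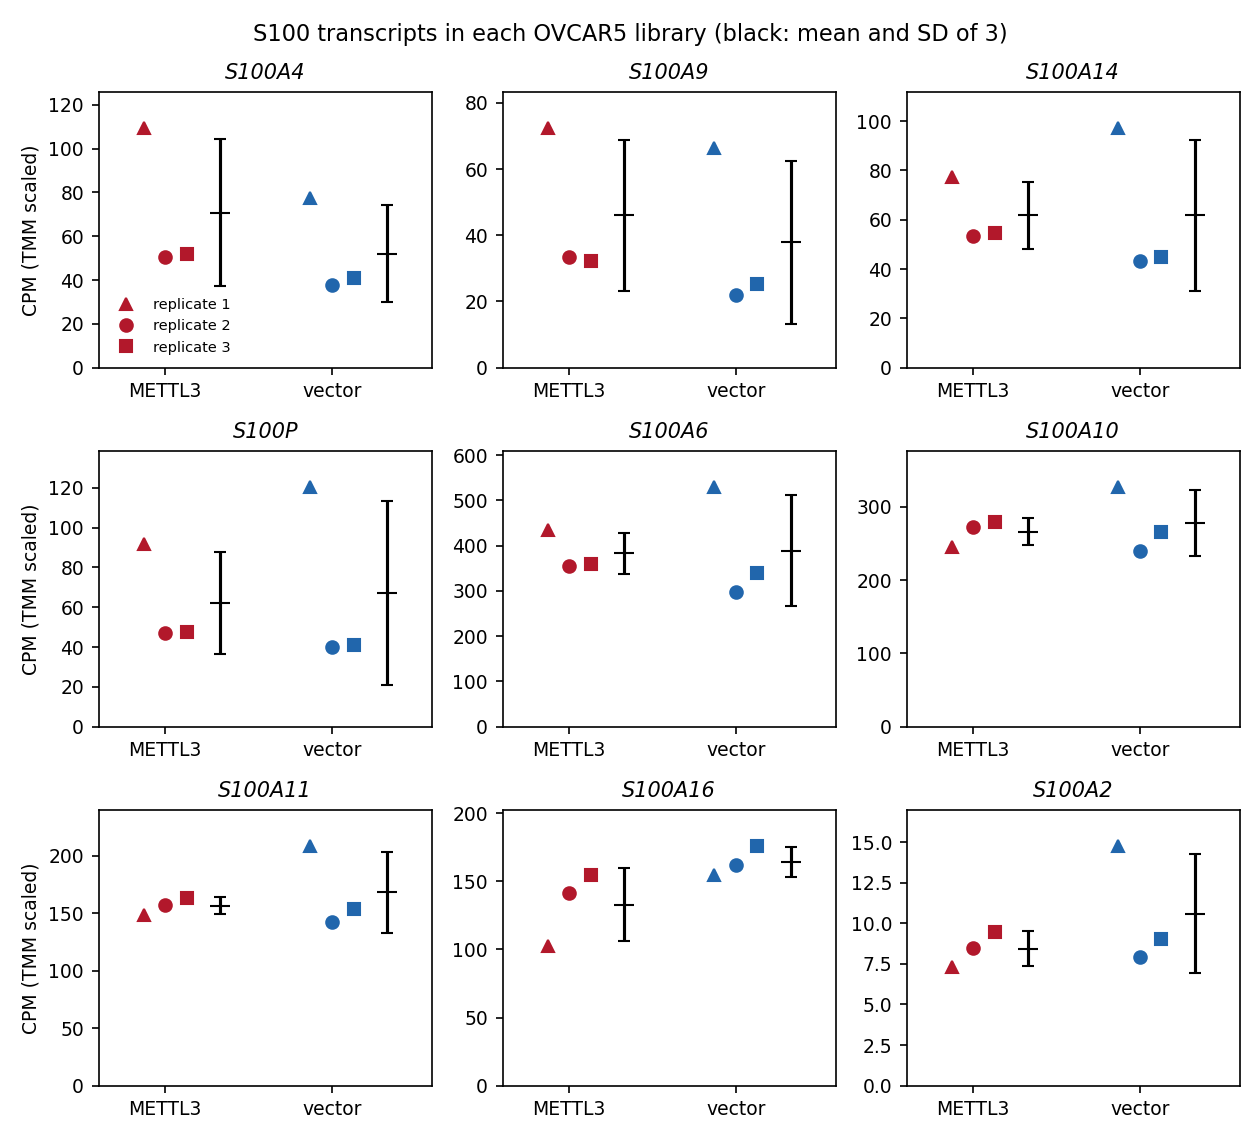
TMM-scaled CPM of the 9 tested members in each library, 1 panel per gene with an axis from 0, METTL3 in red and vector in blue, triangles for replicate 1, circles for replicate 2 and squares for replicate 3, and the mean with SD of 3 in black. For S100A4, S100A9, S100A14 and S100P the 2 triangles lie above all other points, and only in S100A16 are all red points below all blue ones.

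Across all 6 libraries no member was called between METTL3 and vector. The quasi-likelihood test of edgeR, adjusted over all tested genes by the Benjamini-Hochberg method, called 0 of 9 members and 0% of the 22038 genes at an adjusted p under 0.05. At an unadjusted p under 0.05 it found 0 members and 1830 genes, and DESeq2 called 0 members and 225 genes. The median log2 fold change (METTL3 over vector) of the 9 members was -0.06, against -0.02 over all genes.

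The 2 largest fitted values were those of S100A4, 0.44 ± 0.362 (log2, SE; adjusted p = 0.730), and S100A2, -0.33 ± 0.242 (adjusted p = 0.699). S100A16 had -0.31 ± 0.160 (adjusted p = 0.635) and S100A9 0.28 ± 0.461 (adjusted p = 0.866). For S100A14 the log2 fold change was 0.00 ± 0.314 (adjusted p = 0.999). The other 4, S100A6, S100A10, S100A11 and S100P, lay between -0.11 and -0.02 with adjusted p of 0.855 to 0.984. With standard errors of 0.143 to 0.461, a p above the threshold does not show that the groups were alike.

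With the 4 libraries numbered 2 and 3, 5 of 9 members were called, 4 higher and 1 lower with METTL3, where 15.2% of the 22046 tested genes were called. Abundant genes are called more readily. Among the 8219 genes with a mean of at least 20 CPM 21.7% were called, and 5 of the 8 members above that level. S100A9 had the largest difference, a log2 fold change of 0.47 ± 0.0745 (SE; 1.39-fold, adjusted p = 0.00052). S100A4 was higher by 0.38 ± 0.0618 (1.30-fold, adjusted p = 0.000661) and S100A14 by 0.29 ± 0.0568 (1.23-fold, adjusted p = 0.00269).

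S100P, the member from chromosome 4, was higher by 0.22 ± 0.0567 (1.17-fold, adjusted p = 0.0150). S100A16 was lower, at -0.19 ± 0.0612 (0.874-fold, adjusted p = 0.0471), close to the threshold. The annexin-binding members did not pass, with 0.16 ± 0.063 for S100A6 (adjusted p = 0.112), 0.13 ± 0.0587 for S100A10 (adjusted p = 0.182) and 0.11 ± 0.0559 for S100A11 (adjusted p = 0.210). S100A2 had 0.08 ± 0.101 (adjusted p = 0.688). The median over the 9 members was 0.16, and over all tested genes 0.00.

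Since the members are short and rich in GC, the fit on replicates 2 and 3 was repeated after taking out, library by library, how counts vary with GC content and length. The same 5 members were called, at 0.42 for S100A9, 0.34 for S100A4, 0.28 for S100A14, 0.15 for S100P and -0.19 for S100A16 on the log2 scale, where 21.3% of all tested genes were called. All 5 calls rest on 2 libraries a group.

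The libraries numbered 1 did not all move the same way. Within replicate number 1, where each group has a single library and no error can be given, the log2 difference METTL3 minus vector was 0.50 for S100A4 and 0.13 for S100A9 but -0.33 for S100A14, -0.39 for S100P and -0.59 for S100A16. It was -1.01 for S100A2, -0.49 for S100A11, -0.42 for S100A10 and -0.28 for S100A6. So S100A4 and S100A9 were higher, and S100A16 lower, within all 3 replicate numbers. Of all tested genes 19.6% were higher and 20% lower within all 3.

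**Figure D3:**
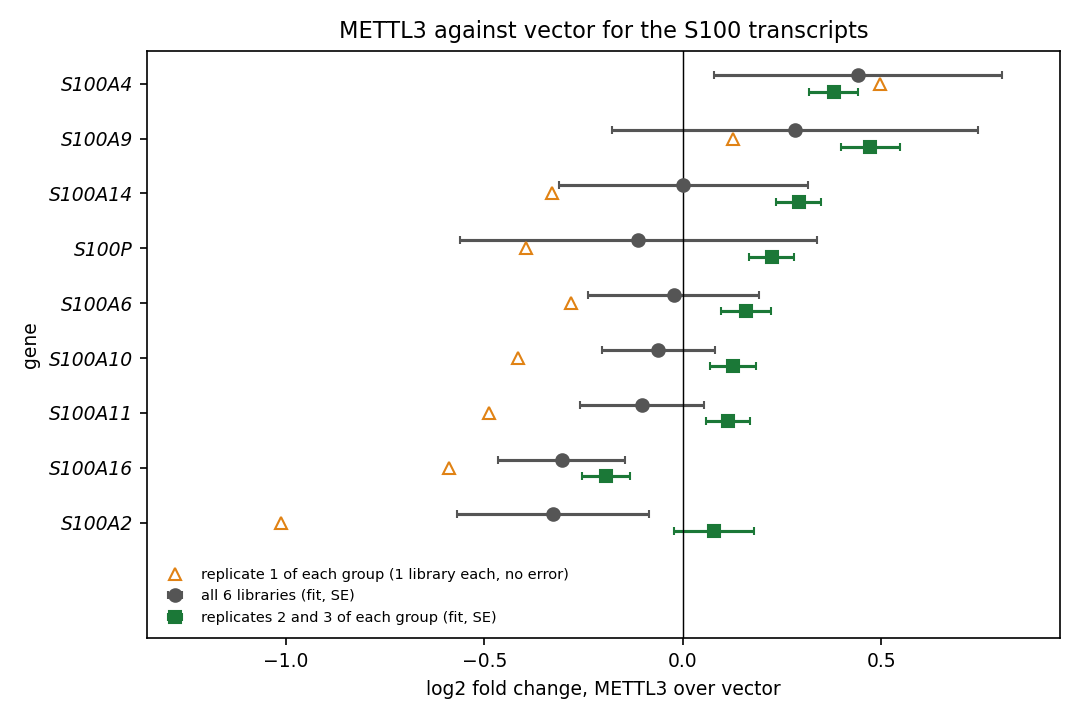
Log2 fold change of METTL3 over vector for the 9 tested members, as fitted on all 6 libraries (grey circles) and on replicates 2 and 3 (green squares), each with its SE, and as the plain difference within replicate number 1 (open triangles, 1 library each, no error). The green values of S100A4, S100A9, S100A14 and S100P lie between 0.22 and 0.47, and the triangles of S100A14 and S100P lie on the other side of 0.

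The replicate number itself was tested by edgeR's quasi-likelihood F test of its 2 coefficients with the group in the model. It called 0 of 9 members, where 0.0318% of all tested genes were called, 1 higher and 6 lower in replicate 1. At an unadjusted p under 0.05 it found 5 members and 13.1% of all tested genes, and DESeq2 called 4 members and 6.04% of the genes to which it gave an adjusted p. With the GC content and length trend removed 2 were called, S100A4 (adjusted p = 0.0397) and S100A9 (adjusted p = 0.0411), where 0.604% of all tested genes were called. With 1 library left out the test called 3 to 9 members, the most without METTL3 replicate 1 (9, with 40.6% of all tested genes) and without vector replicate 1 (7, with 29.7%). Each of those 2 fits holds a single library numbered 1.

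Described by size, replicate 1 exceeded the mean of replicates 2 and 3 by 1.32 ± 0.129 for S100A9 (log2, SE; 2.50-fold), 1.27 ± 0.157 for S100P (2.42-fold) and 1.03 ± 0.105 for S100A4 (2.05-fold). The difference was 0.84 ± 0.159 for S100A14 (1.80-fold) and 0.52 ± 0.149 for S100A6 (1.43-fold). S100A2, S100A11 and S100A10 had 0.29 ± 0.252, 0.20 ± 0.162 and 0.11 ± 0.159, and S100A16 had -0.32 ± 0.136. A rise of at least 1 log2 was thus seen in 3 of 9 members, in 4.44% of all tested genes, and in 0.219% of the 8219 genes with a mean of at least 20 CPM. Each of those 3 members was above that mean.

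**Figure D4:**
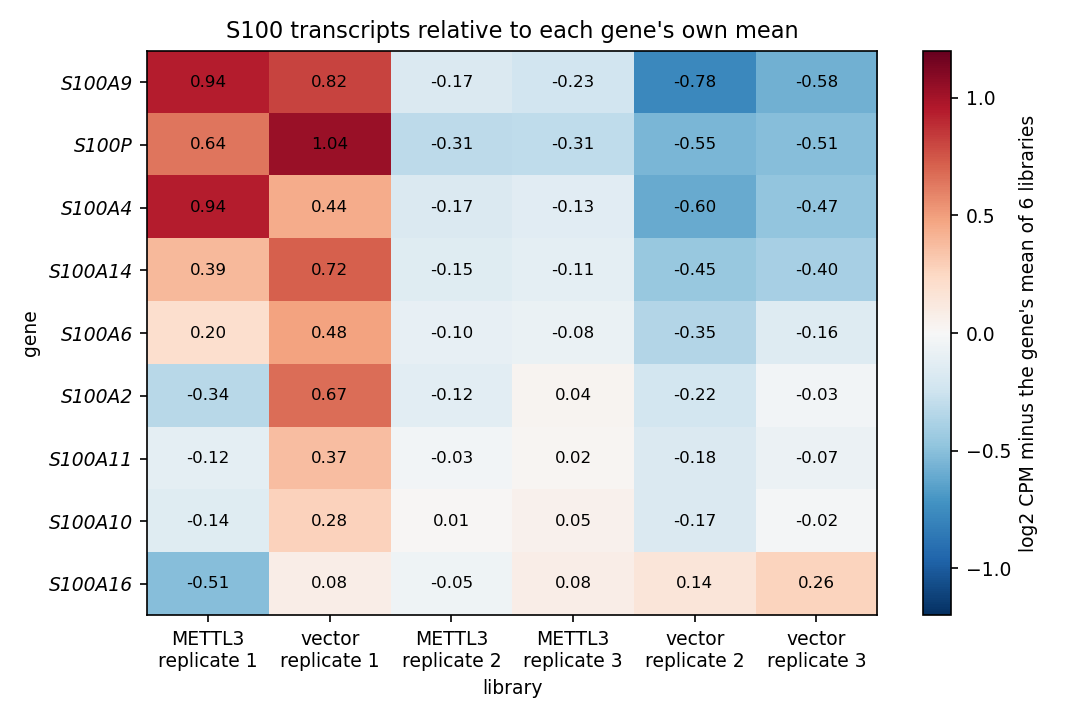
Heat map of log2 CPM minus the gene's own mean over the 6 libraries, with the 9 tested members in rows and the libraries in columns, red above and blue below the mean and the value in each cell. The 2 libraries numbered 1 are red for the 5 upper genes, S100A9, S100P, S100A4, S100A14 and S100A6, and METTL3 replicate 1 is blue for the 4 lower ones.

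The tested members were split by TATAA after the results were known. The 5 tested members with TATAA at 28 to 31 bases before the start had a median replicate 1 difference of 1.03 (log2, 0.52 to 1.32), and the 4 without it 0.16 (-0.32 to 0.29). For METTL3 over vector in replicates 2 and 3 the medians were 0.29 (0.16 to 0.47) and 0.10 (-0.19 to 0.13). The 2 sets of members did not overlap in either of these measures. In replicates 2 and 3 the nearest values were 0.16 ± 0.063 for S100A6 and 0.13 ± 0.0587 for S100A10 (SE), a gap smaller than either SE. For METTL3 over vector on all 6 libraries the sets did overlap, with S100P (TATAA) at -0.11 and S100A10 (no TATAA) at -0.06.

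Over all genes the same split did not give the same picture in the medians. Among tested genes with a window, 581 had TATAA that began 25 to 35 bases before a start and 12771 did not. Their median replicate 1 differences were 0.09 and 0.01, closer together than in the members, and a rise of at least 1 log2 was seen in 6.2% and 2.33%. For METTL3 over vector in replicates 2 and 3 the medians were -0.035 with TATAA there and -0.009 without it, the opposite order to the members. In these libraries 27.4% of the genes with TATAA there and 17.4% of those without were called between METTL3 and vector, 11.8% and 7.62% as higher. Of the genes with a mean of at least 20 CPM, 35.3% of 249 and 19.6% of 6479 were called, with medians of -0.016 and 0.005. At that level 19.3% and 10.5% were called higher. A rise of at least 1 log2 in replicate 1 was seen there in 1.61% and 0.123%, with median differences of 0.002 and -0.035. The 249 genes include the 3 members with such a rise. The members are among these genes, and no test was made of the split.

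The 1 member with a negative difference in both measures sits beside a positive one. S100A14 and S100A16, 1.1 kb apart, had 0.29 and -0.19 in replicates 2 and 3 and 0.84 and -0.32 for replicate 1, and S100P on chromosome 4 lay with the chromosome 1 members S100A9, S100A4 and S100A14. Of 16 other protein-coding genes within 100 kb of a member, 13 were tested and 0 were called on all 6 libraries. None was called in replicates 2 and 3 either, where 15.2% of all tested genes were called and edgeR found 2 of the 13 at an unadjusted p under 0.05. With so few genes, a count of 0 does not show that they were unchanged. DESeq2 on all 6 libraries also called 0.

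**Figure D5:**
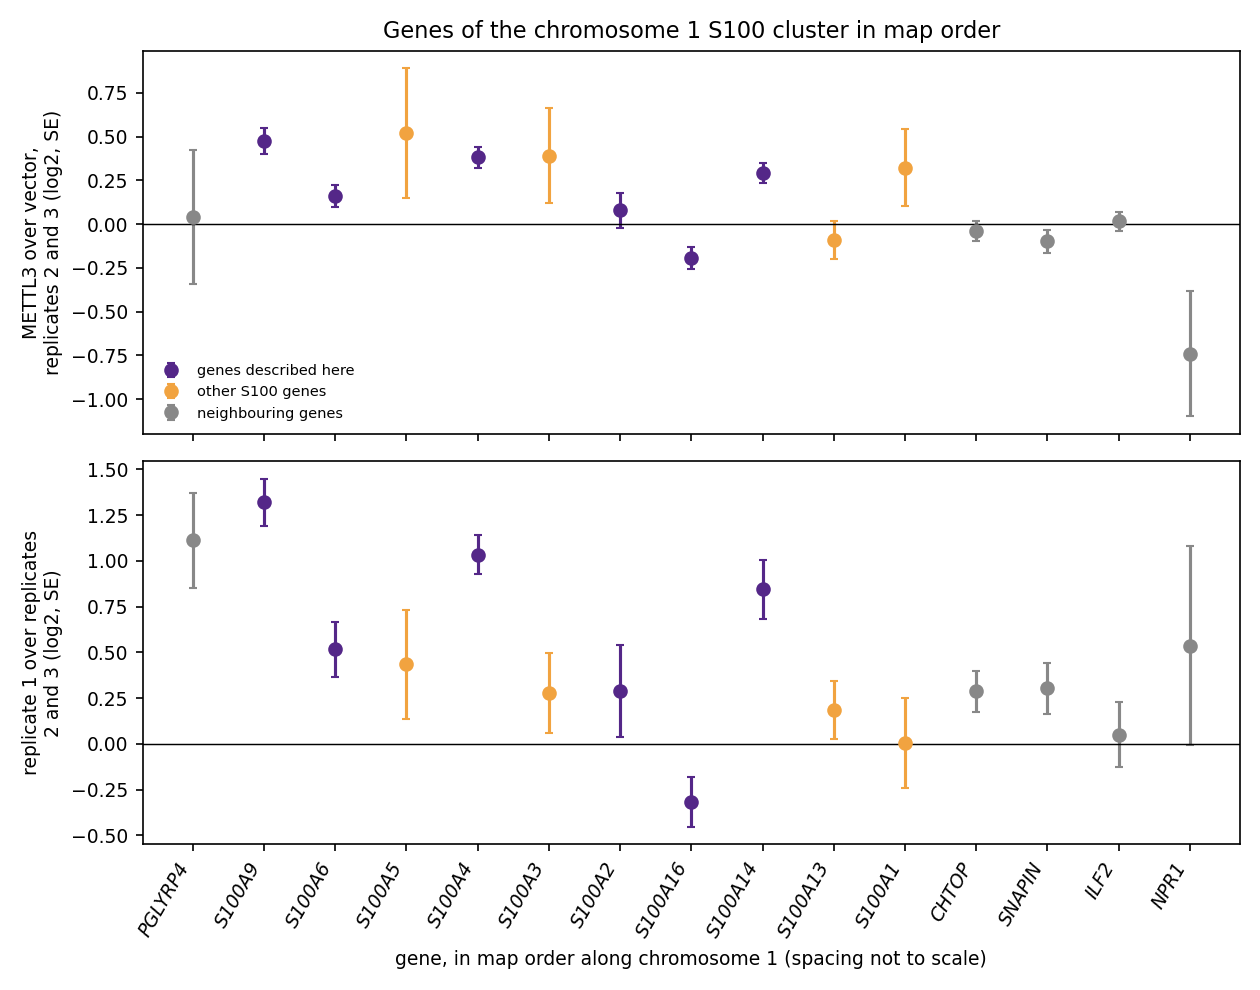
Tested genes around S100A9 to S100A14 in map order (not to scale), with the fitted log2 difference and SE of METTL3 over vector in replicates 2 and 3 (top) and of replicate 1 over replicates 2 and 3 (bottom); members in purple, other S100 genes in orange, other neighbours in grey. S100A16 is the 1 member below 0 in both panels, at -0.19 in the top one, next to S100A14 at 0.29.

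S100A9 had the widest range of all members, 3.29-fold from the highest to the lowest library, followed by S100P with 3.01-fold, S100A4 with 2.91-fold and S100A14 with 2.25-fold. Of 9967 other genes with a mean of at least 10 CPM, those with the most similar log2 CPM over the 6 libraries were IDH1 (Pearson r = 0.997, cytosolic isocitrate dehydrogenase), OAS1 (r = 0.9965, an interferon-induced antiviral enzyme) and PPP1R3C (r = 0.996, a regulator of glycogen synthesis). The 6 points fall into 2 sets by replicate number, so r is a measure of likeness only, and 175 genes exceeded 0.95. IDH1 had 337.2, 233.7 and 231.2 CPM in METTL3 replicates 1, 2 and 3 and 310.3, 188.4 and 198.7 CPM in the vector replicates.

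Of the 11 other S100 genes, 4 were tested. On the length-scaled level all 4 were below the 9 tested members, the nearest being S100A13 at 10.7 to 13.9 TPM (lowest to highest library) below S100A2. S100A13 had 5.41, 5.31 and 5.67 CPM in METTL3 replicates 1, 2 and 3 and 7.61, 5.50 and 6.18 CPM in the vector replicates. S100A1 lay between 0.824 and 1.17 CPM, S100A3 between 0.531 and 1.08 CPM and S100A5 between 0.226 and 0.443 CPM. None of the 4 was called in either comparison of METTL3 with vector, where 0% (all 6 libraries) and 15.2% (replicates 2 and 3) of all tested genes were called. In replicates 2 and 3 the log2 fold changes were -0.09 for S100A13 (adjusted p = 0.663), 0.32 for S100A1 (adjusted p = 0.394), 0.39 for S100A3 (adjusted p = 0.404) and 0.52 for S100A5 (adjusted p = 0.418). S100A13 and S100A1 share exonic bases on opposite strands, 10.6% of those of S100A13, and the sources do not state that the counting used strand, so their values are uncertain. S100A13 also shares 24.2% of its exonic bases with a lncRNA on the same strand, which counting by strand would not separate. S100A1 shares 10.56% of its own with a lncRNA on the opposite strand. S100A6 overlaps an antisense lncRNA over 3.81% of its exonic bases.

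The binding partners and receptors of S100 proteins were called in both directions. On all 6 libraries 0 of 18 were called by edgeR (2 at an unadjusted p under 0.05, 0 by DESeq2). In replicates 2 and 3, 7 of 18 were called where 15.2% of all tested genes were (21.7% of those with a mean of at least 20 CPM), 4 higher and 3 lower, with a median log2 fold change of 0.06. Among the targets, EZR, the membrane-actin linker ezrin that S100P activates, had 1264, 1054 and 1046 CPM in METTL3 replicates 1, 2 and 3 and 1286, 720.5 and 712.5 CPM in the vector replicates, and was higher by 0.55 in replicates 2 and 3 (adjusted p = 3.91e-06).

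Of ANXA1 and ANXA2, the annexins named here, only ANXA1 was called in replicates 2 and 3. ANXA1, the partner of S100A11, was higher by 0.29 in replicates 2 and 3 (adjusted p = 0.00349), whereas vector replicate 1 was the highest of the 6 libraries at 1160 CPM. ANXA2, the partner of S100A10, had 0.00 (adjusted p = 0.975) at 2741 to 2925 CPM in those 4 libraries. AHNAK, the giant scaffold of the S100A10 and annexin A2 complex, had 0.29 (adjusted p = 0.438), and CACYBP, the calcyclin-binding protein that binds S100A6, had -0.09 (adjusted p = 0.354). S100PBP, a nuclear binder of S100P, had 0.16 (adjusted p = 0.158).

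Of the receptors, MCAM, a cell adhesion molecule that binds S100A8 and S100A9, had 115.1, 260.8 and 267.2 CPM in METTL3 replicates 1, 2 and 3 and 121.1, 390.4 and 402.4 CPM in the vector replicates. It was lower by 0.59 on the log2 scale in replicates 2 and 3 (log2 fold change -0.59, adjusted p = 3.11e-06), with both libraries numbered 1 below all others. TLR4 was also lower there, at -0.35 (adjusted p = 0.0248), and lay between 7.84 and 11.2 CPM. AGER, which encodes RAGE, had 0.20 (adjusted p = 0.249) and lay between 4.11 and 5.55 CPM.

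Of 29 other EF-hand genes, 28 were tested and edgeR called 0 on all 6 libraries (2 at an unadjusted p under 0.05, 0 by DESeq2). In replicates 2 and 3, 7 of 28 were called, 3 higher and 4 lower, near the 21.7% of all genes with a mean of at least 20 CPM and above the 15.2% of all tested genes, with a median of -0.03. CALB1, the cytosolic buffer calbindin, was higher by 0.89 (adjusted p = 9.51e-08), at 279.6 and 269.6 CPM against 147.2 and 149.2 CPM, and its libraries numbered 1 had 500.5 CPM (METTL3) and 290.4 CPM (vector). CALB2, calretinin, was higher by 0.31 (adjusted p = 0.00111). VSNL1, a neuronal calcium sensor, was higher by 1.00 (adjusted p = 0.0165) and the mitochondrial protein gene EFHD1 lower, at -0.86 (adjusted p = 0.0345), both between 0.432 and 1.07 CPM in every library.

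In replicates 2 and 3 most epithelial markers were higher with METTL3, as were the 4 members called higher there, whereas S100A16 was called lower. Of 8 epithelial markers 7 were called higher in those libraries. There 15.2% of all tested genes were called in either direction (21.7% of those with a mean of at least 20 CPM). The median log2 fold change of the 8 was 0.36, and EPCAM had 0.71 and CDH1 0.91. On all 6 libraries edgeR called 0 of the 8, and 0 of all tested genes, with a median of 0.21 for the 8. DESeq2 called 1 of the 8 there, and 225 genes in all. The 8 summed to 7785 and 7976 CPM in the METTL3 libraries numbered 2 and 3 against 6263 and 6359 CPM in the vector libraries. In the libraries numbered 1 the sums were 8748 CPM (METTL3) and 9755 CPM (vector). There S100A14 and S100P were also lower with METTL3, as were S100A2, S100A6, S100A10, S100A11 and S100A16, while S100A4 and S100A9 were higher. Of 8 myeloid markers 5 were tested and 1, LYZ, was called lower in replicates 2 and 3, at -0.92. On all 6 libraries edgeR called 0 of them. Of 8 fibroblast markers 0 were called (1 of the 4 tested at an unadjusted p under 0.05), and they summed to 17.7 to 20.2 CPM in METTL3 libraries and 9.45 to 20.5 CPM in vector libraries, nearly all of it COL1A1. The part of these markers in the S100 values was not tested, and in bulk RNA fewer cells of a type and less RNA per cell cannot be told apart.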

How the data were processed

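RNA-seq counts of 3 METTL3 and 3 vector libraries of OVCAR5 were analysed. The deposited values are raw gene-level counts made by the authors. The submitters' processing notes name fastp, HISAT2, featureCounts, Subread and GRCh38/hg38; versions, annotation and strand setting are not given in the sources used here. The notes and the study's methods differ on library kit and read layout. Of the counts from 1 to 20, 67.6 to 70.5% were even, as when both mates of a pair are counted, so precision is lower than the counts imply.

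Gene symbols were matched to GENCODE release 44 by gene ID (60463 of 60649 rows). Genes were filtered by filterByExpr, scaled by TMM and tested with edgeR 4.0.16 in R 4.3.3 (robust quasi-likelihood fit, Benjamini-Hochberg over all tested genes, threshold 0.05); DESeq2 1.42.0 was an alternative. SE was taken as the log2 fold change divided by the root of F. TPM used union exon lengths. The code was tested on simulated data.

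The members and lists were chosen with earlier results of these data known. Named were all 10 members, the other tested S100 genes, up to 4 called genes with the largest log2 fold change in each further list, ANXA1, ANXA2, AHNAK, CACYBP, S100PBP, AGER and TLR4 whatever their values, the 3 genes most like the member of widest range, and METTL3. The values of 1 partner gene are not reported here. Cell type markers are named only where a result for S100A9 or a marker sum turns on them.

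Same-numbered libraries of the 2 groups deviated together from their group means (r = 0.334, 0.12 and 0.175 for numbers 1, 2 and 3; above 0.1 in all), so the replicate block was fitted as the paired alternative. Numbers 2 and 3 correlated as much across numbers (0.205 and 0.133).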

Additional observations from a re-analysis of the deposited data

How the results depend on the processing

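Over the 18 settings of METTL3 against vector, members were called only with replicates 2 and 3, 5 of them with or without the GC content and length trend removed. In the other settings the adjusted p of those 5 ran from 0.119 (S100A4, no filter) to 0.999 (S100A14). Over all genes the count was 225 by DESeq2, 560 with no filter, 1 with the trend removed, 6 with the replicate block and the trend removed, 3362 with replicates 2 and 3, 4703 with the trend also removed, and 0 to 367 without 1 library each, 367 being without vector replicate 1. Partner genes had 1 call with no filter, 7 with replicates 2 and 3, 10 with the trend also removed, and 0 to 1 without 1 library each, the 1 being without vector replicate 1; EF-hand genes had 1, 7 and 11 in the first 3 of these settings. For the replicate number, calls over all genes were 1089 by DESeq2, 1482 with no filter, 133 with the trend removed and 554 to 9130 without 1 library each, and over members 4, 4, 2 and 3 to 9. Of 153 other values of members, 28 reversed. With replicates 2 and 3, and then with the trend also removed, log2 fold changes reversed to 0.078 and 0.048 for S100A2, 0.16 and 0.14 for S100A6, 0.13 and 0.064 for S100A10, 0.11 and 0.054 for S100A11 and 0.22 and 0.15 for S100P. S100A6 also reversed to 0.0046 with no filter, 0.0052 with at least 10 counts in every library, 0.0048 with counts divided by 2 and 0.016 with the replicate block, and S100P to 0.019 with the replicate block, and that paired fit changed no call of a member. Without 1 library each the ranges were -0.15 to 0.26 for S100A6, -0.18 to 0.96 for S100A9, -0.13 to 0.073 for S100A10, -0.18 to 0.080 for S100A11, -0.17 to 0.49 for S100A14 and -0.47 to 0.62 for S100P, with the highest value of each without vector replicate 1. The cause of these differences was not tested. S100A8, at 8 counts or fewer in every library, is below what this depth can compare.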
